A study of Mus musculus with 7 samples.

Results

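The genes described here are 40 genes of ribosome biogenesis, chosen as a set by their function, out of 53458 genes summed from the deposited transcript tables. All 40 were present in the tables, and all 40 passed the filter on low counts that left 20314 genes for testing. RNA had been sequenced from long-term haematopoietic stem cells (LT-HSCs) of aged C57/BL6 mice, with 4 libraries of Srp72+/+ animals (WT) and 3 of Srp72+/- animals, which carry 1 intact copy of Srp72. Srp72 encodes a protein of the signal recognition particle, which brings ribosomes with nascent secretory proteins to the endoplasmic reticulum. The cells had been sorted from bone marrow as Sca1- and cKit-positive, CD150-positive cells that lacked Flt3, CD48 and the lineage antigens Ter119, B220, CD3, Mac1 and Gr1. The labels give neither exact ages, nor sexes, nor the altered part of the Srp72 gene. Per the series' design text the libraries come from 4 and 3 mice, so p-values measure the spread between animals together with that of sorting and library preparation.

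Ribosome biogenesis begins in the nucleolus, where RNA polymerase I transcribes the long precursor of the ribosomal RNAs. Small nucleolar ribonucleoproteins (snoRNPs) methylate and pseudouridylate this precursor, and large sets of assembly factors fold and trim it into the small (40S) and large (60S) subunits. Late factors then carry the 60S subunit to the cytoplasm and release EIF6, which keeps the subunits apart. Blood formation is sensitive to faults in this pathway: SBDS and EFL1 are mutated in Shwachman-Diamond syndrome, and DKC1, NHP2 and NOP10 in dyskeratosis congenita, both marrow failure syndromes. TCOF1, a factor of RNA polymerase I transcription, is mutated in Treacher Collins syndrome, a craniofacial disorder.

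Many genes of this pathway are textbook targets of MYC, which binds the E-box CACGTG. This motif, which is its own reverse complement, was sought in promoter windows of 300 bases (from RefSeq, GRCm38.p6) that end shortly after the transcription start. Of the 40 members, 32 had a window in the table, and 8 of these held the motif, or 25%, against 8.09% of the 27025 genes of the whole table. The 8 were Nmd3, Nop2, Utp4, Utp20, Pes1, Tsr1, Rrn3 and Wdr43. Among other genes of the pathway, 22 of 127 held it, or 17.3%. Tcof1, Fbl, Npm1, Rrp12, Bop1, Rrs1, Sbds and Eif6 were not in the table. The sequences of the 3 members with the motif before the start are shown, since these genes are described in full below. Capitals mark the motif, and each sequence ends before the annotated gene. They lie at chr3:69721805-69721984 for Nmd3, chr6:125131633-125131882 for Nop2 and chr16:13780449-13780698 for Rrn3, all on the plus strand of GRCm38.p6.
Nmd3: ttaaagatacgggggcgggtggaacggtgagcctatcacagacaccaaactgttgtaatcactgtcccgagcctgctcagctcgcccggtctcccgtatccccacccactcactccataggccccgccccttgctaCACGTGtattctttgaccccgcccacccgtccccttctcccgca
Nop2: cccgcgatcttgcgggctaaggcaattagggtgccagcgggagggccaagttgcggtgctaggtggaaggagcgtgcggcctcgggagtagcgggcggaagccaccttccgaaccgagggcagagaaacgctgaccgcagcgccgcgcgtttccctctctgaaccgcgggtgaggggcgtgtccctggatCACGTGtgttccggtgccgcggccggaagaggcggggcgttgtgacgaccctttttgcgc
Rrn3: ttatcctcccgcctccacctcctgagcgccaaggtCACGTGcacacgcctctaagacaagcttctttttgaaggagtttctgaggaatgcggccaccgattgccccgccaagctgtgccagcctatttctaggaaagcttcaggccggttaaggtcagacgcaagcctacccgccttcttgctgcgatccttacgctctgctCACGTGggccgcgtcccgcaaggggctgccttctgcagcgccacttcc
In Nmd3 the motif began 114 bases before the start and in Nop2 60 bases before it, and Rrn3 held 2 copies, the first 215 bases before the start. These distances count from the RefSeq start of each window. In Nmd3 that start lies inside the annotated gene, so the sequence shown ends short of it. A match of letters is a description of these windows and not a measure of binding.

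Srp72 itself was at 99.6, 136.6, 103.0 and 88.4 CPM in WT 1 to WT 4, at 71.9 and 45.7 CPM in Srp72+/- 1 and 2 and at 109.8 CPM in the library labelled Srp72+/- 3. That library thus lay inside the WT range and goes against its label, although the deleted part of the gene, which decides whether reads can show the loss, is not known. The names WT 1 to 4 and Srp72+/- 1 to 3 stand throughout for the libraries so labelled, and the main counts over the members are also given without Srp72+/- 3. The log2 fold change of Srp72 was -0.50 (SE 0.32, edgeR, unadjusted p = 0.159).

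The libraries held between 18054322 and 35247472 estimated reads, and Srp72+/- 3 was the deepest. The sorted cell type was checked against 14 markers of HSCs. The summed level of these markers was 2600 to 3200 CPM (a gene's reads relative to the library total after adjustment with TMM factors) in WT 1, WT 3 and WT 4, and 1610 to 2720 CPM in the Srp72+/- libraries. In WT 2 it was 240 CPM, so this library goes against its label, and the main counts over the 40 members are also given without it. WT 2 had the highest sums of neutrophil, erythroid and B cell markers (39600, 9120 and 10600 CPM), followed by Srp72+/- 1 (12300, 6900 and 4430 CPM). In bulk libraries, fewer cells of a type and less RNA per cell cannot be told apart.

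Between genes, levels are compared per length as TPM, a library's share of transcripts scaled to a common total, and by the median over the 7 libraries. The nucleolar chaperone gene Npm1 was the most abundant member, with a median of 253 TPM and a range of 182 to 411 TPM. Nop56 and Nop58, which encode the paired scaffold proteins of the box C/D snoRNPs that guide methylation, followed with 115 and 74.4 TPM. Between them in this order lay Ncl, which encodes nucleolin, with 82.7 TPM. The range of Nop58 (44.3 to 82.8 TPM) overlapped that of Ncl (57.3 to 114 TPM), so these neighbours did not differ beyond their spread. The members with the lowest medians were Rrp12, which acts in export of the small subunit precursor, with 1.25 TPM, and Bysl, a late small subunit factor, with 1.54 TPM. Each gene's TPM here sums all its transcripts, also those not annotated as protein-coding. The median coding share of TPM was 100% in Rrp12 and Bysl, 35.3% in Ncl and 4.42% in Rrp1b. The order by coding transcripts alone may therefore differ. TPM values do not compare well between these libraries, because transcripts with an effective length under 50 bases took between 57.4% (Srp72+/- 2) and 70.1% (WT 2) of all TPM. CPM is used for that purpose in the following.

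The 40 genes did not move together with the genotype when all libraries were used. Fitted values in Srp72+/- were higher for 26 members and lower for 14. The members' median log2 fold change was 0.03, beside 49.3% higher and a median of -0.01 over all 20314 genes. Of 10387 protein-coding genes that averaged 5 CPM or more, 43.2% were higher and the median was -0.05. In the quasi-likelihood test of edgeR, 0 of 40 members passed an adjusted p of 0.05, where the share called over all genes was 0%. At an unadjusted p under 0.05 there was 1 member, Rrs1, where the share over all genes was 1.8%. DESeq2 likewise called 0 members, against 0.0443% of all genes, and gave 1 member at an unadjusted p under 0.05 against 2.72%. The groups did not overlap for 1 member, again Rrs1, against 3.57% of all genes. Without WT 2, 23 members were higher and 17 lower, with a median of 0.04, where 46.9% of all genes and 50.7% of those protein-coding genes were lower. In that fit 2 members, Rrs1 and Tsr1, had an unadjusted p under 0.05 in edgeR, against 4.84% of all genes, so their count is near the background. The groups then did not overlap for 3 members, Rrs1, Tsr1 and Efl1, against 10.2% of all genes.

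**Figure D1:**
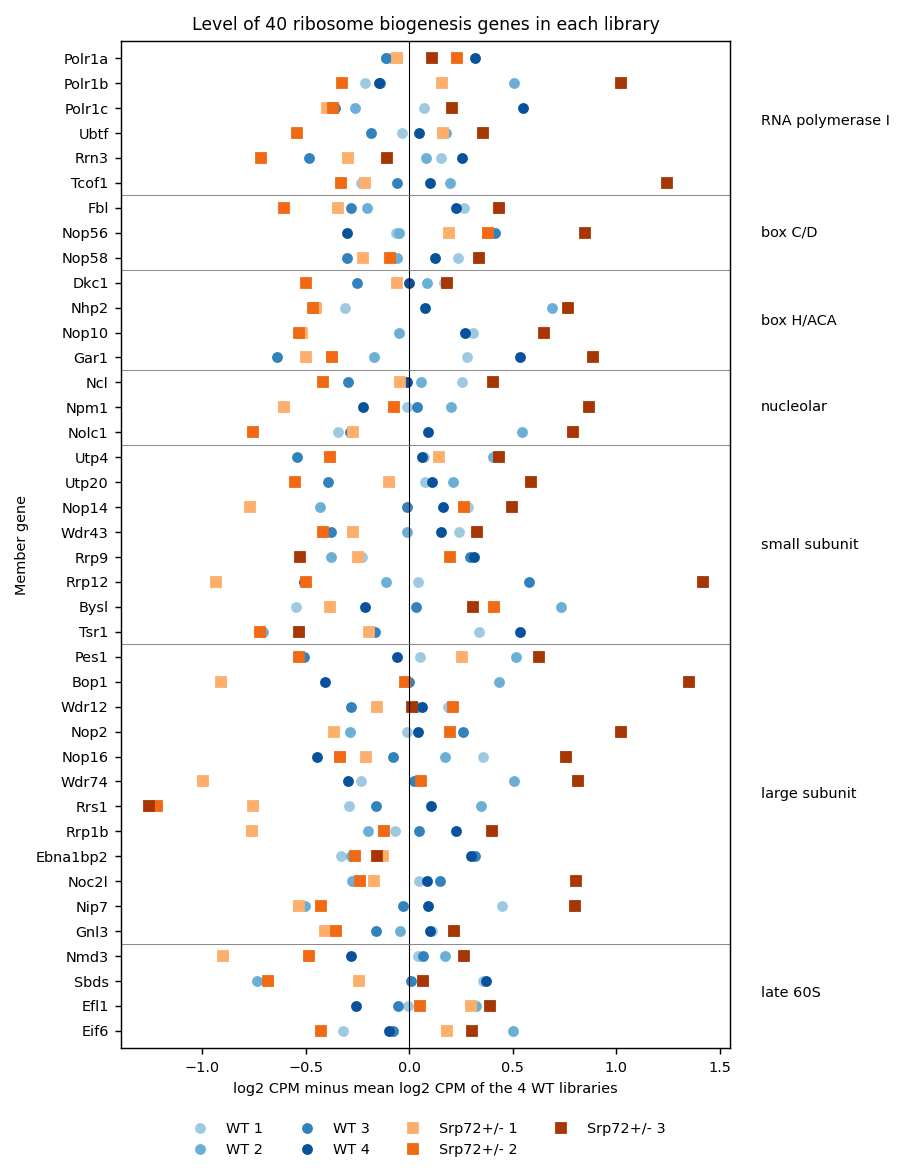
Level of the 40 members in each library, as log2 CPM minus the mean log2 CPM of the 4 WT libraries (x axis), with genes grouped by role (y axis). Circles are WT and squares are Srp72+/- libraries, and the darkest squares, Srp72+/- 3, lie farthest to the right in 29 of the 40 genes.

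The widest pattern among the members lay within the Srp72+/- group. Srp72+/- 3 had the highest CPM of the 7 libraries in 29 of 40 members (72.5%), against 18.6% of all tested genes and 24% of protein-coding genes with a mean of at least 5 CPM. The lowest library was Srp72+/- 2 in 15 members and Srp72+/- 1 in 11, so that one or the other was lowest in 26 of 40, against 20% of all tested genes. Of those protein-coding genes, Srp72+/- 2 was lowest in 15.5% and Srp72+/- 1 in 11.2%. The median ratio of Srp72+/- 3 to the median of the other 6 libraries was 1.40 over the members and 0.986 over all genes. It was above 1 for 35 members. The 5 others were Rrn3 (0.993), Wdr12 (0.977), Tsr1 (0.784), Rrp9 (0.695) and Rrs1 (0.489). By TPM, Srp72+/- 3 was highest in 17 members, against 9.55% of all tested genes. The lowest library by TPM was Srp72+/- 1 or 2 in 7 members, against 6.64% of all tested genes, and WT 2 in 21. By CPM without WT 2, Srp72+/- 3 was the highest library in 30 members, against 23% of all genes, and Srp72+/- 1 or 2 the lowest in 28, against 31.9%.

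**Figure D2:**
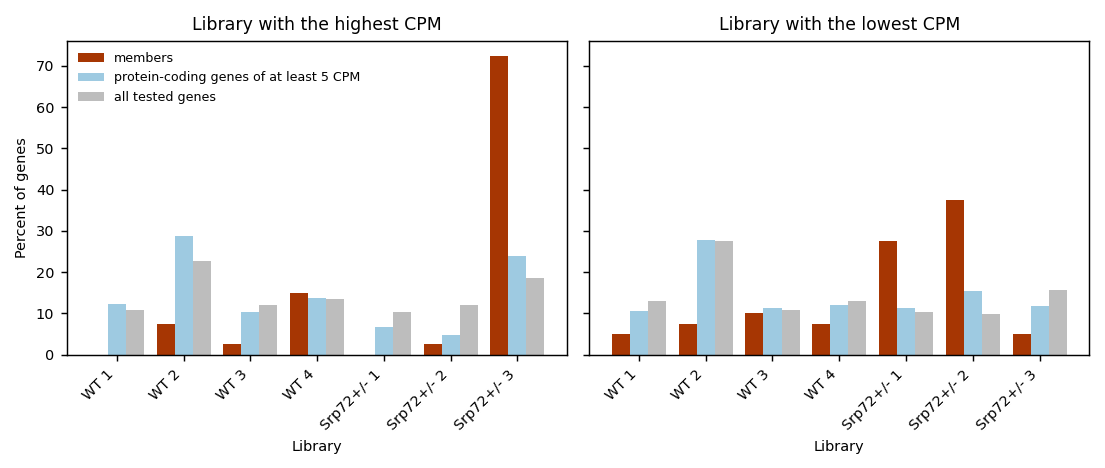
Percent of genes (y axis) in which each library (x axis) had the highest CPM, left, or the lowest CPM, right. Bars compare the 40 members with 10387 protein-coding genes of at least 5 CPM and with all 20314 tested genes, and the members' bar for Srp72+/- 3 reaches 72.5%.

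Left out of the comparison, Srp72+/- 3 turned the direction of the list. Since it was the highest library in most members, this restates its high values and is not a separate result. Without Srp72+/- 3, the fitted value was lower in Srp72+/- for 36 of 40 members and the median was -0.32, beside 54.1% of all genes and a median of -0.05 over them. Of the protein-coding genes with at least 5 CPM, 68.5% were lower, with a median of -0.15. The exceptions were Nop56 (0.26), Efl1 (0.16), Polr1a (0.07) and Wdr12 (0.02). Even so, 0 members passed an adjusted p of 0.05 in edgeR, and 2, Rrs1 and Nmd3, had an unadjusted p under 0.05, against 2.11% of all genes. Without both WT 2 and Srp72+/- 3, 31 members were lower with a median of -0.26, beside 50.4% of all genes. Of the protein-coding genes with at least 5 CPM, 61% were lower, with a median of -0.11. Then 0 members passed in edgeR, and 3, Rrs1, Nmd3 and Sbds, had an unadjusted p under 0.05, against 7.33% of all genes, so this count is near the background. Rrp12 moved farthest, from a log2 fold change of 0.33 to -0.76 without Srp72+/- 3. A further fit (voom in limma) gave less weight to libraries that departed more from the fitted values, which is not a separate measure of quality. Srp72+/- 3 had a weight of 0.434 and WT 2 of 0.327, against 1.18 to 1.81 for the others. In that fit 30 of 40 members were lower, with a median of -0.15, beside a median of 0.03 over all genes. Leaving out WT 2 and Srp72+/- 1, the libraries highest in neutrophil, erythroid and B cell markers, went the other way. Then 12 members were lower, with a median of 0.14, beside 0.02 over all genes.

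**Figure D3:**
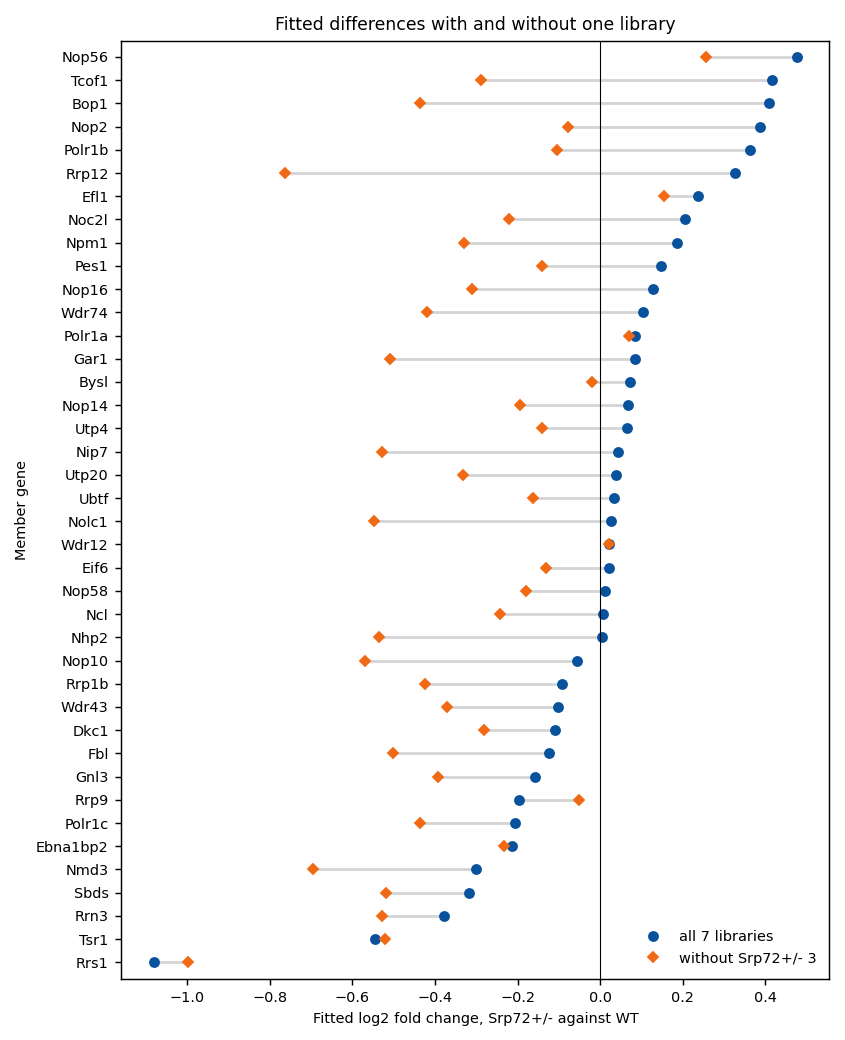
Fitted log2 fold change of each member, Srp72+/- against WT (x axis), for the 40 genes (y axis). Circles are the fit to all 7 libraries and diamonds the fit without Srp72+/- 3, where 36 genes lie below 0.

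The megakaryocyte markers were also high in Srp72+/- 3, while the other marker sums given here lay within the range of the other libraries. Of 8 megakaryocyte markers, 7 were highest in this library, and their sum was 1620 CPM there, 493 and 896 CPM in Srp72+/- 1 and 2, and 40.9 to 1010 CPM in WT. Of 19 proliferation genes, 2 were highest in Srp72+/- 3, but all 19 lay above the median of the other libraries there. Their median ratio to it was 1.71, beside 1.40 for the ribosome biogenesis members. The sum of the proliferation genes was 3030 CPM in Srp72+/- 3 and 3390 and 1680 CPM in the other Srp72+/- libraries. In WT it was 1110 to 1670 CPM in 3 libraries and 5340 CPM in WT 2. The 10 neutrophil markers, of which 0 were highest in Srp72+/- 3, summed to 1210 CPM there, to 12300 and 5200 CPM in Srp72+/- 1 and 2 and to 167 to 39600 CPM in WT. The 10 B cell markers summed to 243 CPM in Srp72+/- 3, with Cd79a and Vpreb1 at 0, to 4430 and 1340 CPM in Srp72+/- 1 and 2 and to 61.3 to 10600 CPM in WT. Their part in the level of the ribosome biogenesis genes was not tested.

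Among the genes of RNA polymerase I transcription, Tcof1 and Polr1b showed the high value of Srp72+/- 3 most clearly. Tcof1 (chromosome 18, 60813755 to 60848971, minus strand of GRCm38) was at 36.3, 48.9, 40.9 and 45.6 CPM in WT 1 to WT 4 and at 36.7, 34.0 and 101.1 CPM in Srp72+/- 1 to 3. Srp72+/- 3 thus lay above every other library, while Srp72+/- 2 lay below every WT library. Mean levels were 42.9 ± 5.5 CPM (SD, n = 4) for WT and 57.2 ± 38.0 CPM (SD, n = 3) for Srp72+/-. The fitted log2 fold change was 0.42 (standard error, SE, 0.40; 95% interval -0.49 to 1.32; edgeR, unadjusted p = 0.322, adjusted p = 0.9998), and -0.29 without Srp72+/- 3. Polr1b (chromosome 2, 129100995 to 129126594, plus strand), the second largest subunit of the polymerase, was at 27.4, 45.2, 28.8 and 28.7 CPM in the WT libraries and at 35.4, 25.4 and 64.6 CPM in Srp72+/-. WT 2 and Srp72+/- 3 stood above the other libraries, and the groups overlapped. Its means were 32.5 ± 8.4 and 41.8 ± 20.4 CPM, with a log2 fold change of 0.36 (SE 0.36, interval -0.46 to 1.19, edgeR, unadjusted p = 0.342), and -0.105 without Srp72+/- 3. With offsets for transcript length it was 0.76.

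Rrn3 encodes TIF-IA, the factor that makes RNA polymerase I competent to start. Rrn3 (chromosome 16, 13780708 to 13814839, plus strand) was at 58.2, 55.4, 37.4 and 62.4 CPM in WT 1 to WT 4 and at 42.6, 31.9 and 48.6 CPM in Srp72+/-. The Srp72+/- libraries were below 3 of the 4 WT libraries, with WT 3 inside their range. The means were 53.3 ± 11.0 CPM (SD, n = 4) and 41.0 ± 8.5 CPM (SD, n = 3), with a log2 fold change of -0.38 (SE 0.27, interval -0.99 to 0.23, edgeR, unadjusted p = 0.19). The catalytic subunit gene Polr1a ranged from 63.5 to 85.8 CPM in WT and from 65.9 to 80.6 CPM in Srp72+/-. Ubtf, which encodes the ribosomal DNA binding factor UBF, ranged from 50.1 to 64.4 and from 39.1 to 72.8 CPM. Polr1c, whose product is shared with RNA polymerase III, ranged from 14.3 to 26.8 and from 13.9 to 21.1 CPM.

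Of the box C/D core genes, Nop56 had the smallest unadjusted p among the members with higher fitted values. Nop56 (chromosome 2, 130274430 to 130279313, plus strand) was at 89.8, 90.6, 125.2 and 76.3 CPM in WT 1 to WT 4 and at 107.1, 122.3 and 169.2 CPM in Srp72+/-. All Srp72+/- libraries lay above WT 1, WT 2 and WT 4, and WT 3 lay within their range. The means were 95.5 ± 20.9 CPM (SD, n = 4) and 132.9 ± 32.4 CPM (SD, n = 3), with a log2 fold change of 0.48 (SE 0.26, interval -0.11 to 1.06, edgeR, unadjusted p = 0.0973, adjusted p = 0.9998). Without Srp72+/- 3 it was 0.26. Its partner Nop58 ranged from 97.0 to 140.2 CPM in WT and up to 150.6 CPM in Srp72+/-. Fbl, the gene of the methyltransferase fibrillarin in the same particle, ranged from 27.8 to 40.6 and from 22.2 to 45.6 CPM. The fitted log2 fold changes of Nop58 and Fbl were 0.01 (SE 0.23) and -0.12 (SE 0.32). Both lay within their standard errors, so a direction shared by the 3 members that encode proteins of this particle was not resolved.

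The box H/ACA snoRNPs, which guide pseudouridylation and whose core proteins also bind telomerase RNA, held the dyskeratosis genes. Dkc1, the pseudouridine synthase gene (chromosome X, 75095854 to 75109777, plus strand), was at 92.0, 87.1, 68.8 and 82.0 CPM in the WT libraries and at 78.6, 57.9 and 93.0 CPM in Srp72+/-. Nhp2 (chromosome 11, 51619735 to 51623714, plus strand) was at 11.5, 23.0, 10.5 and 15.0 CPM in the WT libraries and at 10.4, 10.4 and 24.3 CPM in Srp72+/-. Nop10 (chromosome 2, 112261926 to 112263269, plus strand) was at 45.9, 35.9, 25.8 and 44.8 CPM in the WT libraries and at 26.0, 25.6 and 58.2 CPM in Srp72+/-. In all 3 genes Srp72+/- 3 was the highest library and Srp72+/- 2 the lowest, with the WT libraries between them.

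Dkc1 had means of 82.5 ± 9.98 CPM (SD, n = 4) for WT and 76.5 ± 17.6 CPM (SD, n = 3) for Srp72+/-, a log2 fold change of -0.11 (SE 0.23, interval -0.64 to 0.42, edgeR, unadjusted p = 0.652). For Nhp2 they were 15.0 ± 5.7 and 15.0 ± 8.0 CPM, a log2 fold change of 0.01 (SE 0.44, interval -1.01 to 1.02, edgeR, unadjusted p = 0.99). For Nop10 they were 38.1 ± 9.4 and 36.6 ± 18.7 CPM, a log2 fold change of -0.06 (SE 0.37, interval -0.90 to 0.79, edgeR, unadjusted p = 0.882). The intervals of Nhp2 and Nop10 include a change of nearly 2-fold in either direction. Gar1, the remaining core protein, had the same order at the top, with 28.2 CPM in Srp72+/- 3 against 10.8 and 11.8 CPM in Srp72+/- 1 and 2 and 9.78 to 22.1 CPM in WT. For these 4 genes the median log2 fold change was -0.52 without Srp72+/- 3.

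The 3 genes of the nucleolar chaperones were all highest in Srp72+/- 3, and Npm1 and Ncl were among the most abundant members. Npm1 was at 583.5, 676.1, 603.0 and 504.4 CPM in WT 1 to WT 4 and at 386.8, 559.4 and 1073 CPM in Srp72+/- 1 to 3. Srp72+/- 1 lay below and Srp72+/- 3 above every WT library. Ncl ranged from 470.1 to 688.7 CPM in WT and from 432.1 to 764.8 CPM in Srp72+/-. Nolc1, which chaperones snoRNPs, was at 31.2 and 43.6 CPM in Srp72+/- 2 and 1, at 91.3 CPM in Srp72+/- 3 and between 41.5 and 76.7 CPM in WT. The fitted log2 fold changes were 0.19, 0.01 and 0.03 with all libraries and -0.33, -0.24 and -0.55 without Srp72+/- 3.

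**Figure D4:**
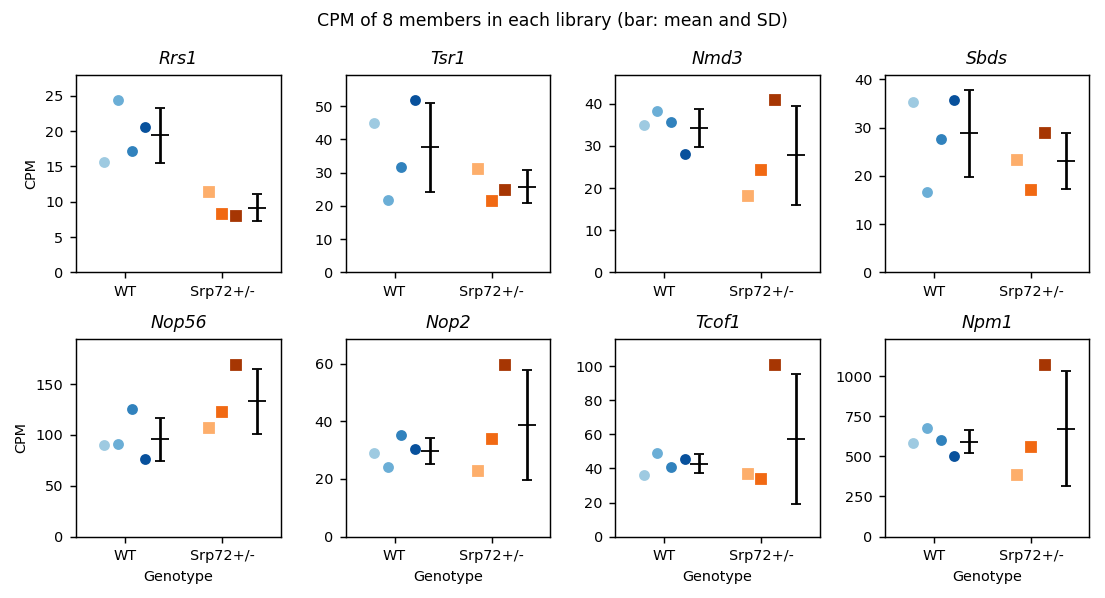
CPM (y axis, from 0) of 8 members in the 4 WT libraries (circles) and the 3 Srp72+/- libraries (squares), in replicate order from left to right, with the mean and SD beside them. The groups do not overlap for Rrs1, while Srp72+/- 3 stands above the other libraries in Nmd3, Nop2, Tcof1, Npm1 and Nop56.

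In small subunit assembly, Tsr1, which encodes a GTPase-like factor on the late 40S precursor, had the lowest fitted value. Tsr1 (chromosome 11, 74898071 to 74909342, plus strand) was at 45.1, 21.9, 31.8 and 51.8 CPM in WT 1 to WT 4 and at 31.1, 21.6 and 24.7 CPM in Srp72+/-. All Srp72+/- libraries lay below WT 1, WT 3 and WT 4, and WT 2 lay within their range. The means were 37.6 ± 13.4 CPM (SD, n = 4) and 25.8 ± 4.9 CPM (SD, n = 3), with a log2 fold change of -0.54 (SE 0.34, interval -1.32 to 0.23, edgeR, unadjusted p = 0.146, adjusted p = 0.9998). Without WT 2, the library low in HSC markers, it was -0.73 with an unadjusted p = 0.0264 in edgeR, and the call over all genes was still not reached.

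The other small subunit genes overlapped between the genotypes. Rrp12 was at 9.76 to 20.7 CPM in WT, at 7.26 and 9.82 CPM in Srp72+/- 1 and 2, and at 37.1 CPM in Srp72+/- 3, the largest ratio of this library to the median of the others (3.27) among the members. Utp20, a scaffold of the small subunit processome, ranged from 48.4 to 73.5 CPM in WT and from 43.4 to 95.5 CPM in Srp72+/-. Utp4, an early factor of that complex, ranged from 22.2 to 42.7 and from 24.7 to 43.5 CPM. Wdr43, which acts beside Utp4, ranged from 54.4 to 83.4 and from 52.9 to 88.7 CPM. All 3 genes were highest in Srp72+/- 3, and the lowest library was Srp72+/- 2 in Utp20 and Wdr43 and WT 3 in Utp4. Nop14 ranged from 22.1 to 36.2 CPM in WT and from 17.5 to 42.0 CPM in Srp72+/-, and Bysl from 9.30 to 22.6 and from 10.4 to 18.1 CPM. Rrp9, a protein specific to the U3 snoRNP, was at 5.25 CPM in Srp72+/- 3, the lowest of the 7, and ranged from 5.82 to 9.40 CPM in WT.

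Rrs1 was the member with the clearest separation of the genotypes, and it lay among the large subunit genes. RRS1 brings the 5S ribonucleoprotein into the 60S precursor. Rrs1 (chromosome 1, 9545408 to 9547455, plus strand) was at 15.6, 24.4, 17.1 and 20.6 CPM in WT 1 to WT 4 and at 11.3, 8.21 and 8.01 CPM in Srp72+/- 1 to 3. Every Srp72+/- library lay below every WT library, and Srp72+/- 3, high in most other members, was the lowest of all. Mean levels were 19.4 ± 3.9 CPM (SD, n = 4) for WT and 9.18 ± 1.86 CPM (SD, n = 3) for Srp72+/-. The log2 fold change was -1.08 (SE 0.31, interval -1.80 to -0.37), with an unadjusted p = 0.00801 and an adjusted p = 0.9998 in edgeR, so it did not pass over all genes.

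This direction of Rrs1 was kept without each library in turn, with log2 fold changes between -1.28 (without Srp72+/- 1) and -0.95 (without WT 2). The gene has 1 annotated transcript and overlaps the exons of no other annotated gene. The share of all genes whose groups did not overlap with lower values in Srp72+/- was 1.49%, so 1 gene in 40 is near that background.

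Of the remaining large subunit genes, Nop2 and Bop1 had higher and Ebna1bp2 lower fitted values. Nop2, an rRNA methyltransferase gene (chromosome 6, 125131909 to 125144753, plus strand), was at 29.1, 24.1, 35.2 and 30.2 CPM in the WT libraries and at 22.8, 33.7 and 59.7 CPM in Srp72+/-. Bop1, a partner of PES1 and WDR12 in the PeBoW complex (chromosome 15, 76452989 to 76477277, minus strand), was at 12.8, 17.6, 13.1 and 9.85 CPM in the WT libraries and at 6.94, 12.9 and 33.2 CPM in Srp72+/-. In both genes Srp72+/- 1 was the lowest and Srp72+/- 3 the highest library. Ebna1bp2 (chromosome 4, 118620799 to 118627776, plus strand) was at 27.2, 28.1, 42.5 and 42.0 CPM in the WT libraries and at 31.4, 28.5 and 30.7 CPM in Srp72+/-. Its Srp72+/- libraries lay close together, between the lower and the higher pair of WT libraries.

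The means of Nop2 were 29.6 ± 4.6 CPM (SD, n = 4) and 38.7 ± 18.9 CPM (SD, n = 3), a log2 fold change of 0.39 (SE 0.34, interval -0.40 to 1.17, edgeR, unadjusted p = 0.293). Those of Bop1 were 13.3 ± 3.2 and 17.7 ± 13.8 CPM, a log2 fold change of 0.41 (SE 0.52, interval -0.77 to 1.59, edgeR, unadjusted p = 0.45). Those of Ebna1bp2 were 34.97 ± 8.5 and 30.2 ± 1.5 CPM, a log2 fold change of -0.21 (SE 0.26, interval -0.81 to 0.38, edgeR, unadjusted p = 0.435). Without Srp72+/- 3, the values of Nop2 and Bop1 turned to -0.08 and -0.44.

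The 3 genes of the PeBoW complex differed in how they varied. Bop1 reached 33.2 CPM in Srp72+/- 3 and Pes1 31.8 CPM, against 14.5 to 29.5 CPM for Pes1 in WT. Wdr12 stayed between 46.9 and 65.8 CPM over all 7 libraries, and its highest library was Srp72+/- 2. Noc2l, which works in transport of the early 60S precursor, was at 156.3 CPM in Srp72+/- 3 and between 73.8 and 99.1 CPM in the other 6 libraries, and its log2 fold change went from 0.21 to -0.22 without Srp72+/- 3. Nip7, Nop16 and Wdr74 were also highest in Srp72+/- 3, with 29.3, 23.4 and 25.1 CPM. Rrp1b and Gnl3, the gene of nucleostemin, reached 58.4 and 90.2 CPM there, while Srp72+/- 1 had their lowest values, 26.1 and 58.6 CPM.

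The late 60S genes include the Shwachman-Diamond pair. SBDS and the GTPase EFL1 together release EIF6 from the 60S subunit, and NMD3 is its export adaptor. Sbds (chromosome 5, 130245731 to 130255530, minus strand) was at 35.3, 16.6, 27.7 and 35.7 CPM in WT 1 to WT 4 and at 23.3, 17.1 and 28.9 CPM in Srp72+/-. Efl1 (chromosome 7, 82648614 to 82777852, plus strand) was at 13.1, 16.4, 12.6 and 11.0 CPM in the WT libraries and at 16.1, 13.6 and 17.2 CPM in Srp72+/-. Nmd3 (chromosome 3, 69721985 to 69756373, plus strand) was at 34.97, 38.4, 35.6 and 28.0 CPM in the WT libraries and at 18.2, 24.3 and 40.8 CPM in Srp72+/-. For Efl1 the genotypes overlapped through WT 2 alone, and for Nmd3 through Srp72+/- 3 alone. For Sbds WT 2 was the lowest library, and Srp72+/- 3 lay above WT 3 as well.

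Sbds had means of 28.8 ± 9.0 CPM (SD, n = 4) and 23.1 ± 5.9 CPM (SD, n = 3), a log2 fold change of -0.32 (SE 0.34, interval -1.10 to 0.47, edgeR, unadjusted p = 0.38). It was -0.51 without WT 2 and -0.07 with offsets for transcript length. Efl1 had means of 13.3 ± 2.3 and 15.6 ± 1.9 CPM, a log2 fold change of 0.24 (SE 0.29, interval -0.42 to 0.89, edgeR, unadjusted p = 0.43), and 0.36 without WT 2. Nmd3 had means of 34.2 ± 4.4 and 27.8 ± 11.7 CPM, a log2 fold change of -0.30 (SE 0.32, interval -1.03 to 0.42, edgeR, unadjusted p = 0.367). Without Srp72+/- 3 its value was -0.70 with an unadjusted p = 0.0404 in edgeR, which did not pass over all genes. Eif6 ranged from 21.4 to 37.8 CPM in WT and from 19.9 to 33.0 CPM in Srp72+/-.

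Other genes tied to these syndromes were read from the same fit. Dnajc21, a further Shwachman-Diamond gene, had a log2 fold change of -0.03. Naf1, an assembly factor of the box H/ACA snoRNPs, was at 25.1, 23.0, 12.4 and 18.03 CPM in the WT libraries and at 11.5, 10.5 and 13.5 CPM in Srp72+/-. Its Srp72+/- libraries lay below 3 of the WT libraries, with a log2 fold change of -0.73 (SE 0.33, edgeR, unadjusted p = 0.0577). Of the 12 genes of this list, which holds Sbds, Efl1, Dkc1, Nhp2 and Nop10, 0 passed in edgeR, 4 were higher and 8 lower, with a median of -0.05. It also holds the 3 copies of Srp54, whose reads are divided with uncertainty, and Wrap53, a telomerase factor gene, at 0.36.

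Of 150 further genes of the pathway, 148 were tested, 76 were higher and 72 lower, with a median of 0.01, and 0 passed an adjusted p of 0.05 in edgeR. The groups did not overlap for 6 of them, which were Polr1d, Rpf2, Cebpz and Npm3 with lower and Ddx27 and Dis3 with higher values in Srp72+/-. That is close to the 3.57% of all genes. Srp72+/- 3 was the highest library in 67 of the 148 (45.3%), beside 72.5% of the 40 members, and this difference was not tested. Without it 119 of 148 were lower, with a median of -0.22.

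By role, 10 of 15 further genes of RNA polymerase I were higher and 5 lower, with Polr1d at a log2 fold change of -0.42, Taf1a at -0.47, Polr2e at 0.65 and Polr2f at 0.47. Of 12 snoRNP factors 8 were higher and 4 lower, with Znhit6 at 0.54, Snu13 at 0.20 and Znhit3 at -0.38. Of 50 small subunit factors 22 were higher and 28 lower, with Ddx52 at -0.61, Wdr3 at -0.46, Pwp2 at 0.49 and Pdcd11 at 0.31. Of 48 large subunit factors 25 were higher and 23 lower. Their lowest unadjusted p belonged to Cebpz (-0.50, edgeR, unadjusted p = 0.0444), with Npm3 at -0.99, Ddx27 at 0.52 and Pelp1 at 0.44. Of 23 tested genes of rRNA processing nucleases 11 were higher and 12 lower, with the exosome nuclease gene Dis3 at 0.65 (edgeR, unadjusted p = 0.0384), Exosc9 at 0.36, Rpp14 at -0.39 and Mphosph6 at -0.57.

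Myc, the transcription factor gene whose product drives many of these genes, was at 144.4, 79.8, 119.6 and 84.3 CPM in WT 1 to WT 4 and at 70.6, 105.0 and 183.8 CPM in Srp72+/- 1 to 3. It was highest in Srp72+/- 3 and lowest in Srp72+/- 1, and its log2 fold change was 0.16 (SE 0.36, edgeR, unadjusted p = 0.665), and -0.29 without Srp72+/- 3. Of the 8 genes of the Myc network 2 were higher and 6 lower, with Mycl at a log2 fold change of 1.28, Mxi1 at -0.36 and Mnt at -0.26. The value of Mycl rests on very few reads, since it was at 0 in WT 1 and WT 4 and reached 0.669 CPM at most. Of 6 tested genes that link the 5S ribonucleoprotein to p53, 3 were higher and 3 lower. Among them Trp53 was at 258.6 CPM in Srp72+/- 3 and between 105.7 and 144.3 CPM in the other libraries, with a log2 fold change of 0.44, and -0.02 without Srp72+/- 3. Of the others Rpl11 had 0.23, Mdm4 had -0.11 and Cdkn1a had -0.38.

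Many reads of the members were assigned to transcripts that are not annotated as protein-coding. The coding share of a gene's TPM, as a median over the libraries, was under 50% in 17 of the 40 members. It was 100% in 8, among them Rrs1, Nop2, Nop10, Noc2l and Rrp12. The lowest medians belonged to Rrp1b (4.42%), Nmd3 (7.47%) and Polr1a (7.74%). Annotated snoRNA genes, 21 in all, lie within the bodies of 7 members, which are Nop56, Nop58, Dkc1, Ncl, Wdr43, Tsr1 and Gnl3. Their median coding share was 46.3%, against 72.8% for the 33 others. By estimated reads in place of TPM, these values were 66.5% and 93.2%, and the share was under 50% in 10 members.

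The host genes show this at the level of single transcripts. The retained-intron transcript Ncl-202 was at 30.6 to 42.3 TPM over the libraries. The coding transcript Ncl-203 was at 7.51 to 44.5 TPM, highest in Srp72+/- 3. The other coding transcript, Ncl-201, held more reads than Ncl-203 in every library. It was at 5.54 to 14.8 TPM, highest in Srp72+/- 2. In Nop56 the coding transcript Nop56-214 was at 22.1 to 69.4 TPM over the libraries, and the retained-intron transcript Nop56-215 at 11.8 to 35.6 TPM. Of 32 members with a share under 100% in some library, the groups did not overlap in their coding share for 5, against 5.23% of 9826 protein-coding genes. These were Polr1c, Gar1, Nop16 and Rrp1b, with lower coding shares in Srp72+/-, and Npm1, with higher ones. Gar1 was at 35.4%, 33.0%, 21.9% and 29.1% in WT 1 to WT 4 and at 15.8%, 17.8% and 14% in Srp72+/-, and the share was not tested. Such shares come from the division of reads among overlapping transcripts and carry its uncertainty.

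**Figure D5:**
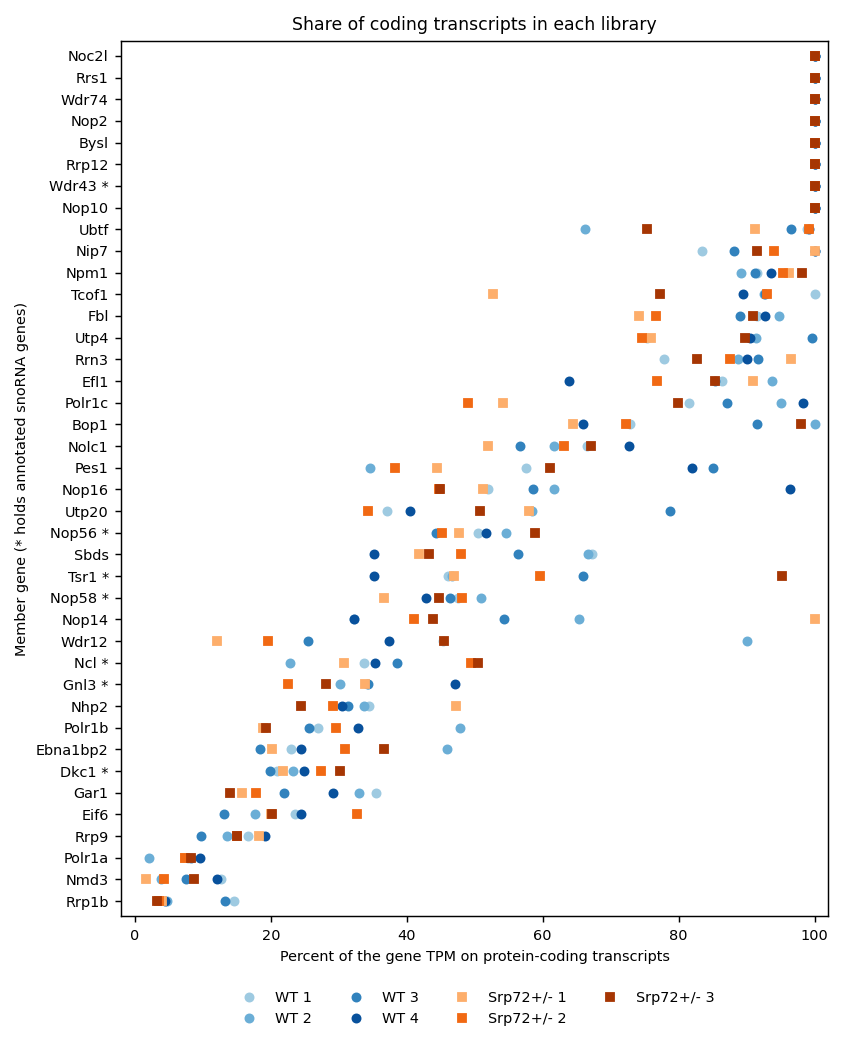
Percent of a gene's TPM on transcripts annotated as protein-coding (x axis) for the 40 members (y axis, ordered by median) in each WT (circles) and Srp72+/- (squares) library. Asterisks mark the 7 genes that hold annotated snoRNA genes, of which only Wdr43 lies at 100%.

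With reads of coding transcripts alone, 22 members were higher and 18 lower in Srp72+/-, with a median of 0.08, and 0 passed in edgeR. Rrs1 was at -1.01 and Nop56 at 0.47, near their values with all transcripts. Other members moved far: Rrp1b went from -0.09 to -1.10, Gnl3 from -0.16 to -0.72 and Gar1 from 0.08 to -0.57, while Ncl went from 0.01 to 0.34 and Eif6 from 0.02 to 0.33. Exons of 16 members overlap a gene on the opposite strand in the annotation, among them Nop56, Dkc1, Nhp2, Tsr1 and Bop1, and those of Efl1 overlap a gene on the same strand. No label states the strand setting, so the values of these genes may include reads of their neighbours.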

How the data were processed

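Estimated counts (expected counts) per transcript and TPM values were deposited by the authors, made with Salmon 0.12.0 per the submitters' processing notes. The deposited effective lengths are in bases. Per the labels' protocols, RNA of sorted cells was amplified with the Ovation V2 system before library preparation, which can widen differences between small samples. The notes name neither transcript release nor strand setting.

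Of 136288 transcripts, 136176 matched GENCODE M21 (GRCm38), and the 112 others held at most 0.0622% of reads. Counts were summed over each gene and rounded. Genes passed edgeR's filter at a minimum count of 10 and a total of 15. The comparison of 4 WT with 3 Srp72+/- libraries used edgeR 4.0.16 (TMM, robust quasi-likelihood test) in R 4.3.3, with Benjamini-Hochberg adjustment over all 20314 genes and a threshold of 0.05. The common biological coefficient of variation was 0.628. CPM uses TMM library sizes, and means of log2 CPM add 0.1. The fit was tested on simulated data. DESeq2 1.42.0, limma 3.58.1 (voom), other scalings and filters, length offsets, coding transcripts, a replicate block and leaving out libraries were alternatives. Leaving out WT 2 with Srp72+/- 3, and TPM rescaled without short transcripts, were added after seeing the data.

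The members and gene lists were chosen with earlier results of these data known. Full statistics are given for the 6 members with the smallest unadjusted p in each direction, those without overlap, and Sbds, Efl1, Dkc1, Nhp2, Nop10 and Tcof1. Of each further list the 2 genes with the smallest p per direction are named. Intervals are 95% intervals of the fit. A count of 3 reads corresponds to 0.091 to 0.192 CPM, a limit for counting error only, since amplified reads carried no molecular identifiers.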

Additional observations from a re-analysis of the deposited data

Results flagged for a closer look

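Within the 4 WT libraries, 1 library stood far from the other 3 by Dixon's criterion in 4 of 48 measures of the members (40 genes and 8 list means). Polr1a was at 85.8 CPM in WT 4, with a gap to the next library of 0.948 of the whole range. Polr1b was at 45.2 CPM in WT 2, with a ratio of 0.923. The mean log2 CPM of all 40 members was 5.09 in WT 3 (ratio 0.852), the lowest of the WT libraries. The mean of the 4 box H/ACA genes was 4.38 in WT 3 (ratio 0.84), also the lowest. Chance alone marks about 1 in 20 such groups, and the measures share libraries. The 3 Srp72+/- libraries are too few for this criterion, so the high values of Srp72+/- 3 were not examined by it.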

How the results depend on the processing

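No member passed an adjusted p of 0.05 in edgeR, DESeq2 or voom under any alternative run, and Rrs1 kept a lower value in all of them. Over all genes, DESeq2 called 9, the fit without WT 2 and Srp72+/- 3 called 1, and leaving out 1 library in turn gave 0 to 1 (1 without WT 4). The members' median log2 fold change ranged from -0.32 to 0.15 when 1 library was left out. The number of members with lower values, 14 with all libraries, ranged from 14 to 36 (25 without WT 3, 36 without Srp72+/- 3), and was 30 with voom weights and 31 without WT 2 and Srp72+/- 3. It was 12 without WT 2 and Srp72+/- 1, and 20 with the RLE scaling or DESeq2. Srp72+/- 3 was highest in 29 members by CPM, in 17 by TPM and in 19 by TPM rescaled without short transcripts. By rescaled TPM it was highest in 12.3% of all genes. Leaving out the short transcripts thus did not bring the TPM count to that of CPM. By reads, 10 members were under 50% coding. The causes were not tested.

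Single genes turned direction as follows. Without WT 2 and Srp72+/- 3, Bop1 was at -0.27, Nop2 at -0.16, Tcof1 at -0.22 and Nhp2 at -0.25. With voom weights, Tcof1 was at -0.0162 and Nhp2 at -0.105. Nhp2 was at -0.0286 with RLE scaling, -0.0277 with DESeq2, -0.034 with coding transcripts and -0.0547 with length offsets. Dkc1 was at 0.0865 with coding transcripts, and Nop10 at 0.11 without WT 2 and Srp72+/- 1. With 1 library left out, the ranges were -0.44 to 0.77 for Bop1, -0.28 to 0.0383 for Dkc1, -0.54 to 0.29 for Nhp2, -0.57 to 0.13 for Nop10, -0.0774 to 0.64 for Nop2, -0.105 to 0.60 for Polr1b and -0.29 to 0.67 for Tcof1.

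Replicate numbers are shared by 3 libraries of each genotype, but the labels give no pairing, and deviations of same-numbered libraries correlated at -0.316, -0.162 and 0.002. Libraries did not correlate best with their own number. With the replicate number as a block, a fit that also leaves out WT 4, 26 members were lower, against 19 without WT 4 and no block. In the block fit the members' median was -0.04, beside 0.01 over all genes. Bop1 was at -0.0392 and Nhp2 at -0.0542 in it, and 0 genes passed. With 4 and 3 libraries, the 95% intervals of single members differ in width, from -0.40 to 0.56 for Polr1a to -0.998 to 1.65 for Rrp12. They give the differences compatible with the data for a single gene, and not a limit of detection over all genes.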
